A study of Arabidopsis thaliana with 9 samples.

Results

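The genes described here are 4 D-type cyclins and 4 inhibitors of cyclin-dependent kinases (CDKs), chosen by locus identifier from the 33602 gene models counted in each of 9 RNA-seq libraries of Arabidopsis thaliana. The cyclins are CYCD3;1 (AT4G34160), CYCD3;2 (AT5G67260), CYCD3;3 (AT3G50070) and CYCD4;1 (AT5G65420). The inhibitors are KRP1 (AT2G23430), KRP2 (AT3G50630), SIM (AT5G04470) and SMR1 (AT3G10525, also named LGO). All 8 were found in every library. The choice used no measured value, but it was made with earlier results of these data known.

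D-type cyclins bind CDKA;1, and the complex phosphorylates the retinoblastoma-related protein RBR1, which frees E2F factors to switch on genes of DNA synthesis. KRP proteins and the SIM/SMR family bind cyclin-CDK complexes and hold them back. In leaves the CYCD3 genes prolong the dividing phase, whereas SIM in trichomes and SMR1 in sepal and leaf epidermis promote endoreplication, in which cells copy their DNA without dividing.

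RNA came from aerial organs of plants aged 21 days in the Col0 ecotype, grown on soil without treatment at 21 °C and 65% hygrometry, with 8 h of light and 16 h of dark. There are 3 libraries each of WT, cuc2-3 and CUC2gm-4, named below by genotype and replicate number. The series asks how CUC transcription factors, which act in organ boundaries and leaf margins, work during leaf development. The design text calls both lines knock-outs of CUC genes, and nothing in the labels says how either allele was made or whether replicates are separate plants, and the p-values thus cover the spread among these libraries and no more. CUC2 itself stood at 31.3 to 43.5 normalised CPM (counts scaled to library size) in the libraries labelled CUC2gm-4, at 0.62 to 1.75 in cuc2-3 and at 0.81 to 2.96 in WT. Its level in CUC2gm-4 therefore goes against a knock-out, and directions involving CUC2gm-4 are those of the libraries labelled so.

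Libraries held 17361433 to 27734410 counts, so that 3 counts correspond to 0.108 to 0.173 CPM, and such floors cover counting error only. Summed over all 9 libraries the members had from 502 counts (KRP1) to 12364 (CYCD3;2). Root markers summed to at most 0.391 normalised CPM and flower markers to at most 0.711, in libraries where 4 green leaf markers summed to 28022 to 71932. WT 1 stood apart: STM, a gene of the shoot meristem, was at 1.93 normalised CPM there and at 13.1 to 31.6 in the other libraries, and its green leaf sum of 71932 was above the 28022 to 51527 of the others. Values are therefore given with and without WT 1 where they rest on it. These are mixed organs, and fewer cells of a type and less RNA per cell cannot be told apart.

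The stretches of 250 bases before the annotated starts of SMR1 and CYCD4;1 are shown because SMR1 was the member that differed with the replicate number and because CYCD4;1 was the cyclin whose levels ran most strongly opposite to it. They were read from the RefSeq TAIR10.1 genome, 5′ to 3′ on each gene's own strand. Both genes lie on the minus strand. The windows are chr3:3282132-3282381 for SMR1 and chr5:26144021-26144270 for the cyclin. Matches to a searched motif would stand in capitals, and neither window held one.
SMR1: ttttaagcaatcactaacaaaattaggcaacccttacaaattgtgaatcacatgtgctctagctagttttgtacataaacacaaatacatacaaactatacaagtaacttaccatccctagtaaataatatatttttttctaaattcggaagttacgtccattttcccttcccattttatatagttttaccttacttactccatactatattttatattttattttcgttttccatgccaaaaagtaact
CYCD4;1: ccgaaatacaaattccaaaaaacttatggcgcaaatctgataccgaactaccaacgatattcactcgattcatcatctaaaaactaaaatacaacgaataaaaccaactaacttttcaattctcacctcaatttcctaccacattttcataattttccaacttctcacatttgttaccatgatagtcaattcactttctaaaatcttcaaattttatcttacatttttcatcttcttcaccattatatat

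The motifs, picked after the values were known, were searched on both strands in the windows of 7 members. The G-box (CACGTG, in 6.49% of 27443 promoters of this length) occurred in KRP1 alone. The I-box (GATAAG, 12.3%) occurred in CYCD3;1 and SIM. The evening element (AAAATATCT, 2.36%) and the L1 box (TAAATGCA or TAAATGTA, 4.49%) occurred in none of the 7. SMR1 and CYCD4;1 had no match to any of these 4 motifs. The CYCD3;1 window overlaps the neighbouring gene AT4G34150 on the same strand, so its I-box may lie inside that gene.

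Per length, the CYCD3 genes were the most abundant of the 4 cyclins chosen, and KRP1 had the lowest mean of the 8 members. Mean RPKM (counts scaled by library size and model length) over the 9 libraries was 44.2 ± 7.56 for CYCD3;2 and 33.5 ± 6.80 for CYCD3;1 (SD, n = 9). Next came SMR1 at 17.2 ± 8.44, CYCD3;3 at 16.1 ± 4.60 and SIM at 16.1 ± 3.49, whose ranges overlapped. KRP2 followed at 8.49 ± 1.66, CYCD4;1 at 4.39 ± 0.91 and KRP1 at 2.84 ± 1.2. Between neighbours in this order, the ranges lay apart only from SIM to KRP2 and from KRP2 to CYCD4;1. CYCD3;2 was above CYCD3;1 within each of the 9 libraries, although the ranges of these genes overlapped.

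CYCD3;1, a cyclin that answers to cytokinin and promotes entry into the cell cycle, is at chromosome 4, 16357421 to 16359565 (plus strand, TAIR10.1), and overlaps AT4G34150 by 40 bases on the same strand. WT replicates 1 to 3 stood at 41.2, 55.6 and 60.1 normalised CPM, cuc2-3 replicates at 54.6, 38.1 and 50.5, and CUC2gm-4 replicates at 63.3, 58.0 and 75.0. Every CUC2gm-4 library was above every cuc2-3 library, while WT overlapped both. CYCD3;2 acts redundantly with it. WT replicates had 52.0, 58.2 and 77.5 normalised CPM of this gene, cuc2-3 replicates 66.9, 42.1 and 62.7, and CUC2gm-4 replicates 62.7, 69.8 and 70.9. All groups overlapped, and the lowest value was again in cuc2-3 2. The gene lies at chromosome 5, 26836139 to 26839597 (plus strand), and an antisense locus of at most 4 counts in any library overlaps it by 220 bases.

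CYCD3;3, the third gene of the subfamily (chromosome 3, 18565134 to 18566834, minus strand), ranged most among the D3 cyclins. WT replicates 1 to 3 had 12.1, 22.2 and 31.0 normalised CPM, cuc2-3 replicates 20.2, 16.8 and 22.6, and CUC2gm-4 replicates 17.97, 30.2 and 27.6. The spread inside WT alone covered all 9 libraries. CYCD4;1, known from stomatal lineage and root divisions (chromosome 5, 26141470 to 26144020, minus strand), was low throughout. Its WT replicates had 3.31, 5.41 and 6.77 normalised CPM, its cuc2-3 replicates 5.56, 5.48 and 6.50, and its CUC2gm-4 replicates 5.23, 7.43 and 6.51. WT 1 was the lowest library for both genes.

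Among the inhibitors, KRP1 (chromosome 2, 9976590 to 9978090, minus strand) had the lowest counts. WT replicates stood at 4.93, 3.35 and 1.10 normalised CPM, cuc2-3 replicates at 2.39, 3.44 and 2.27, and CUC2gm-4 replicates at 3.14, 1.89 and 1.80. KRP2, an inhibitor of CDKA;1 in leaf cells (chromosome 3, 18800306 to 18801595, plus strand), had 6.99, 8.37 and 8.13 normalised CPM across WT replicates, 10.2, 5.59 and 11.1 across cuc2-3 replicates and 8.04, 8.32 and 7.99 across CUC2gm-4 replicates. Both KRP genes overlapped between all genotypes, and KRP2 spread most widely in cuc2-3.

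SIM, which stops division in developing trichomes (chromosome 5, 1266625 to 1267416, minus strand), had 14.97, 10.2 and 11.01 normalised CPM across WT replicates, 13.9, 9.76 and 11.6 across cuc2-3 replicates and 15.2, 10.3 and 17.5 across CUC2gm-4 replicates. Replicate 2 was its lowest library in each genotype. SMR1 (chromosome 3, 3281306 to 3282131, minus strand) separated by replicate number. WT replicates 1 to 3 stood at 22.1, 9.10 and 7.41 normalised CPM, cuc2-3 replicates at 19.7, 9.31 and 8.92, and CUC2gm-4 replicates at 13.2, 6.68 and 7.29. Replicate 1 was the highest SMR1 library of each genotype. Antisense loci overlap SIM by 338 bases and SMR1 by 375, and no source used here says whether counting respected strand, so without that their reads cannot be told apart from those of SIM and SMR1.

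**Figure D1:**
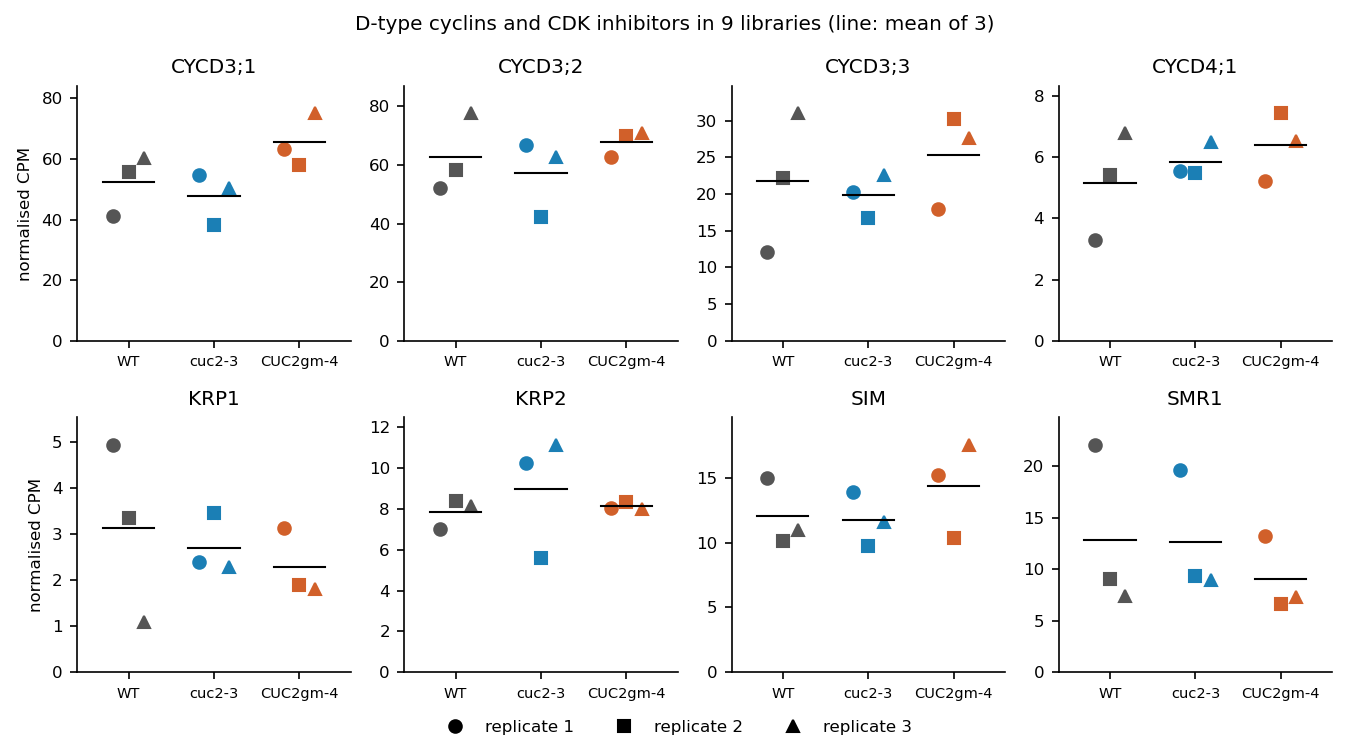
Normalised CPM (vertical axes from 0) of each of the 8 genes by genotype, with one point per library shaped by replicate number and a line at the mean of 3. SMR1 separates by replicate number, with replicate 1 at 22.1, 19.7 and 13.2, whereas the genotypes overlap in all panels except CYCD3;1 between cuc2-3 and CUC2gm-4.

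None of the 8 genes passed the test in any genotype comparison (edgeR quasi-likelihood, Benjamini-Hochberg over 18291 genes, adjusted p under 0.05). For cuc2-3 against WT 0.0219% of all genes passed, against 0 of 8 members, and log2 fold changes ran from -0.20 for KRP1 to 0.20 for KRP2. The median of the 8 was -0.08, beside -0.01 over all genes. The 95% intervals of the first 2 cyclins (-0.56 to 0.30 and -0.58 to 0.33) were the narrowest among the 4, and those of KRP1 (-1.24 to 0.84) and SMR1 (-1.02 to 0.98) the widest of all members. At an unadjusted p under 0.05 there were 358 genes (1.96%) and 0 members. Without WT 1, SMR1 moved from -0.02 to 0.60, KRP1 from -0.20 to 0.28 and CYCD3;3 from -0.14 to -0.44, with adjusted p of at least 0.92 in edgeR for every member.

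In CUC2gm-4 against WT 0.0164% of all genes passed and again 0 of 8 members, while 1185 genes (6.48%) and 0 members had an unadjusted p under 0.05. All 4 cyclins had positive log2 fold changes, at 0.32 ± 0.19 (SE) for CYCD3;1, 0.30 ± 0.27 for CYCD4;1, 0.21 ± 0.31 for CYCD3;3 and 0.11 ± 0.21 for CYCD3;2, with adjusted p from 0.815 in edgeR. Of the inhibitors, SIM was at 0.26 and KRP2 at 0.05, whereas KRP1 was at -0.44 and SMR1 at -0.49. Without WT 1 the cyclins, in the order just given, were at 0.16, 0.05, -0.09 and -0.01, KRP1 at 0.04, KRP2 at -0.04 and SMR1 at 0.13, while SIM was at 0.42. With the replicate number as a block 0.191% of all genes passed and still 0 of 8 members.

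CUC2gm-4 against cuc2-3, a comparison that shares the CUC2gm-4 libraries with the previous one, does not use WT. Here 0.0164% of all genes passed and 0 of 8 members. CYCD3;1 had a log2 fold change of 0.45 ± 0.19 (SE), or 1.37-fold with a 95% interval of 1.02 to 1.85, and an unadjusted p of 0.040 that became 0.9999 after edgeR's adjustment. Of all genes 3.73% reached an unadjusted p under 0.05, and of the members this one alone did. With the replicate block 0.0383% of all genes passed and 0 of 8 members. It was higher in 3 of 3 same-numbered pairs, as were 13.9% of all genes, and its libraries did not overlap, which held for 4.82% of all genes in that direction. Without cuc2-3 2, its lowest library, the value was 0.32. The other cyclins were at 0.24, 0.35 and 0.12, in the order of the opening paragraph.

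SMR1 was at -0.48 in the same comparison, with a 95% interval of -1.47 to 0.52. Leaving out one library at a time gave values from -0.85, without CUC2gm-4 1, to -0.0017, without cuc2-3 1. It was lower in CUC2gm-4 in 3 of 3 same-numbered pairs against WT and against cuc2-3, as were 16% and 15.2% of all genes. With the replicate block its interval narrowed, to -0.79 to -0.04 around -0.41 against WT and to a value of -0.45 against cuc2-3, with adjusted p of 0.418 and 0.631 in edgeR. Neither passed. SIM was higher in 3 of 3 pairs in both comparisons, as were 17.2% and 13.9% of all genes, with values of 0.26 and 0.29, and did not pass.

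**Figure D2:**
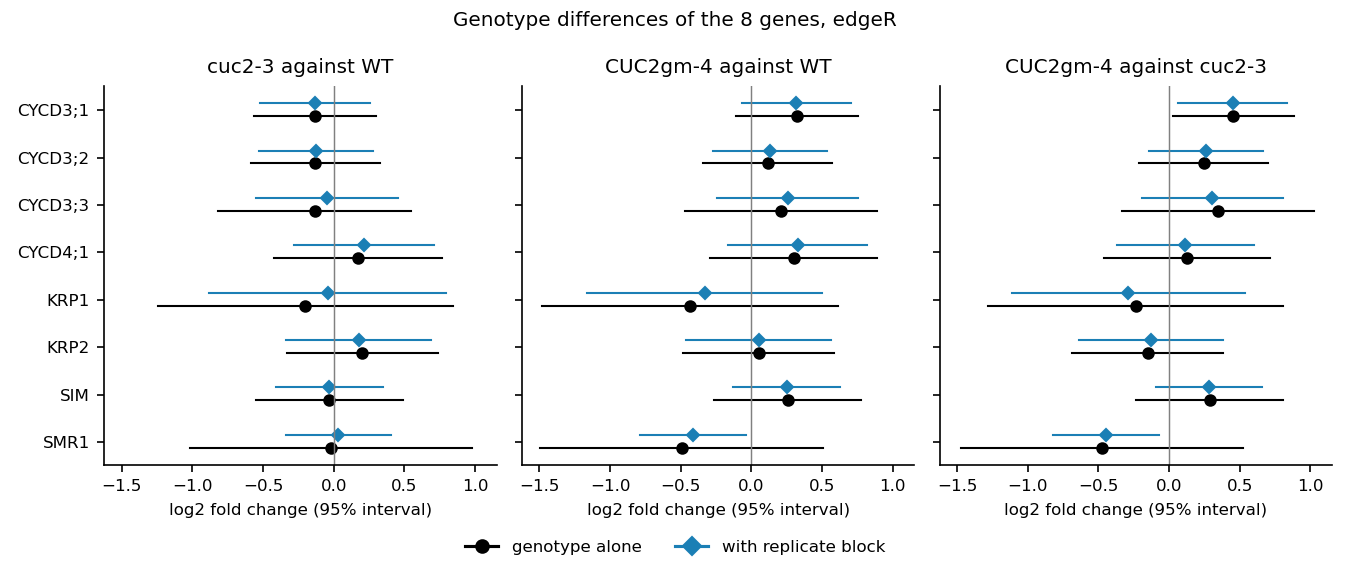
Log2 fold changes (horizontal axes) with 95% intervals of the 8 genes in the 3 genotype comparisons, for the model with genotype alone (black) and with the replicate number as a block (blue). Most intervals span 0, and the exceptions, CYCD3;1 at 0.45 in CUC2gm-4 against cuc2-3 and SMR1 at -0.41 and -0.45 with the block, did not pass after adjustment. With the block, 2000 of 18291 genes for CUC2gm-4 against WT and 1351 against cuc2-3 had an unadjusted p under 0.05 in edgeR.

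SMR1 differed with the replicate number, the only member to do so. The test asks on 2 degrees of freedom, with genotype in the model, whether the 3 replicate numbers differ. No label explains what the numbers mean. It called 4.36% of all genes and 1 of 8 members, SMR1, with an adjusted p of 0.0069 in edgeR and rank 54 of 18291 by p. Replicate 1 exceeded the mean of replicates 2 and 3 by 1.15 ± 0.14 (SE) on the log2 scale, a contrast chosen after the values were seen. All 3 libraries of replicate 1 were above the other 6, as in 4.71% of all genes. Replicate 1 was highest in 3 of 3 genotypes, as in 10.1% of all genes. It was at least 2-fold higher than the mean of replicates 2 and 3 in 0.388% of all genes. Without WT 1 the value was 1.02 and the adjusted p 0.025 in edgeR.

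The other members did not pass for the replicate number, for which 23.9% of all genes and 3 of 8 members had an unadjusted p under 0.05. SIM had an unadjusted p of 0.027 and an adjusted p of 0.155, and CYCD3;3 had 0.037 and 0.181 in edgeR. Replicate 1 minus the mean of the others was 0.35 for SIM, 0.63 for KRP1 and 0.03 for KRP2, and was negative for the 4 cyclins, at -0.07, -0.04, -0.56 and -0.44 in the order of the opening paragraph. Without WT 1 the cyclins were at 0.13, 0.11, -0.31 and -0.26, SIM at 0.27, KRP1 at 0.27 and KRP2 at 0.15. Of the tissue markers a pair passed for the replicate number. RBCS1A, a Rubisco small subunit, was higher in replicate 1 by 0.74 ± 0.15 (adjusted p 0.040 in edgeR), and GL2, a trichome and epidermis factor, by 0.47 ± 0.13 (0.044). Without WT 1 they were at 0.62 and 0.33 and did not pass (adjusted p 0.103 and 0.100 in edgeR). The 4 green leaf markers summed to 40409 to 71932 normalised CPM in replicate 1, 28022 to 46511 in replicate 2 and 34282 to 39699 in replicate 3. Of these 4 all had positive values and 1 passed. The 5 trichome markers summed to 141 to 152, 92.8 to 113 and 115 to 146, and 4 of 5 had positive values, with ETC1 at -0.38 and 1 passing. The 6 stomatal lineage markers summed to 106 to 133, 68.3 to 103 and 79.5 to 108, and 6 of 6 had positive values (median 0.21), none of them passing edgeR's adjustment and 2 with an unadjusted p under 0.05. STM was lowest in replicate 1 of each genotype, at -1.37 ± 0.37, with an adjusted p of 0.102 in edgeR, and at -0.81 without WT 1. Their part in the SMR1 result was not tested.

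Summed RPKM of the 4 cyclins against that of the 4 inhibitors gave a ratio from 1.14 in WT 1 to 3.46 in WT 3. WT 2 had a ratio of 2.47. The cuc2-3 replicates stood at 1.66, 1.94 and 2.31, and the CUC2gm-4 replicates at 1.98, 3.35 and 2.80. The replicate 1 library was the lowest of each genotype, and the genotypes overlapped. SMR1 made up 39.10% to 51.3% of the inhibitor sum in replicate 1 and 25.2% to 39.05% in the other libraries, so that the ranges nearly touch.

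**Figure D3:**
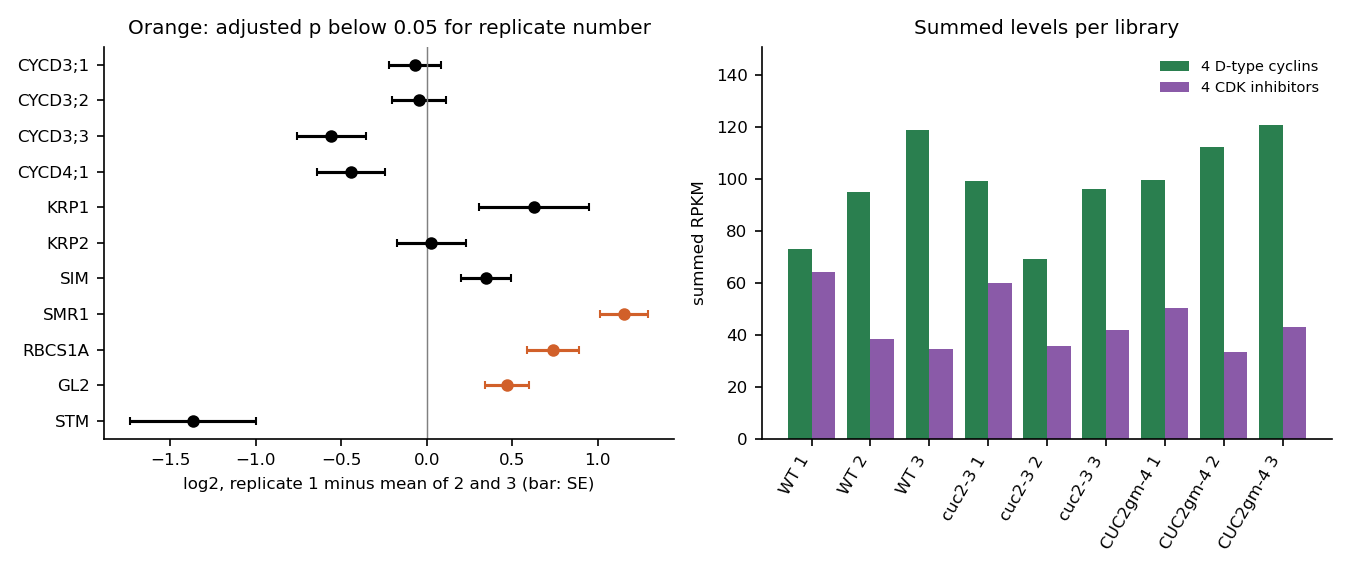
Left, log2 difference of replicate 1 from the mean of replicates 2 and 3 with its SE for the 8 genes and for RBCS1A, GL2 and STM, in orange where the replicate number passed the test. Right, summed RPKM of the 4 cyclins and the 4 inhibitors in each library. SMR1 stands at 1.15 on the left, and the ratio of the bars on the right runs from 1.14 in WT 1 to 3.46 in WT 3.

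After genotype means were subtracted, log2 levels of some members varied together across the 9 libraries (n = 9), of which same-numbered ones deviate together. CYCD3;3 and CYCD4;1 had a Pearson r of 0.98 (Spearman rho 0.98), and CYCD3;1 and CYCD3;2 one of 0.83 (0.87). The former pair ran opposite to KRP1, with r of -0.91 and -0.87, and to SMR1, with -0.79 and -0.86. KRP2 did not, with r of 0.44 and 0.35 to that pair and of 0.70 and 0.80 to the latter. CYCD3;1 and CYCD3;2 had r of -0.69 and -0.83 to KRP1, and of -0.27 and -0.22 to SMR1. WT 1 was the lowest library for CYCD3;3 and CYCD4;1 and the highest for KRP1 and SMR1. No r without WT 1 was calculated. SIM and SMR1 had r of 0.68, whereas CYCD3;2 and SIM had 0.11 and KRP2 and SMR1 had 0.01. The genes most like SMR1 by r were LIL3:1 (0.995), AT2G04570 (0.994) and AT2G44230 (0.993), with rho of 0.883, 0.950 and 0.950. For CYCD3;1 they were AT5G25050, AKR4C10 and AT1G68080 (0.993, 0.977 and 0.974). For CYCD3;2 they were MKP2, CDT1 (AT1G52827, here short for CADMIUM TOLERANCE 1) and SAG18 (0.981, 0.978 and 0.978). Those of CYCD3;3 were WIT1, AT5G42850 and AT4G24710 (0.991, 0.991 and 0.990). Those of CYCD4;1 were AT1G02630, AT3G57320 and AT1G10682 (0.993, 0.992 and 0.992). For KRP1 they were AT3G15090, OVA1 and AT3G62890 (0.995, 0.991 and 0.991). KRP2 was closest to AT2G27290, AT1G78200 and DRIP2 (0.973, 0.973 and 0.960), and SIM to AT1G27285, ALDH11A3 and NCS1 (0.984, 0.981 and 0.975). These are the nearest of 18291 genes over 9 libraries, so high values of r are a product of the search and are given as a description. Subtracting genotype means also leaves fewer than 9 free values. By rho some were less close, at 0.800 for KRP2 with AT2G27290, 0.817 for KRP1 with AT3G15090 and 0.850 for CYCD3;1 with AT1G68080.

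The wider pathway was read from lists of genes, of which none passed in any genotype comparison. The D-type cyclin, KRP and SIM/SMR lists hold the members themselves, 4 of them cyclins, so their counts repeat member values given above. In CUC2gm-4 against WT 9 of 9 tested D-type cyclins had positive values (median 0.27, beside -0.003 over all genes), as had 9 of 9 against cuc2-3 (median 0.24). Without WT 1 the count against WT was 7 of 9 and the median 0.12. CYCD1;1 was at 0.28 and CYCD2;1 at 0.27 against WT, and CYCD4;2 at 0.45 and CYCD6;1 at 0.43 against cuc2-3. The KRP list was mixed, with 4 of 7 and 2 of 7 positive, KRP5 at 0.39 and KRP7 at 0.42 against WT and KRP7 at 0.33 and KRP6 at -0.40 against cuc2-3. The SIM/SMR list had 5 of 9 positive in both.

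Genes downstream behaved as follows. Of 14 mitotic genes 13 had positive values in CUC2gm-4 against WT (median 0.18) and 14 against cuc2-3 (median 0.27), where CDKB1;1, a kinase of the G2 to M step, was at 0.62 (unadjusted p 0.013) and the mitotic cyclin CYCB1;1 at 0.44 (0.022), neither passing edgeR's adjustment over all genes. Without WT 1 the count against WT was 11 of 14 (median 0.10). In cuc2-3 against WT 12 of 14 were negative (median -0.08), with CDKB1;1 at -0.38, and without WT 1 14 of 14 were (median -0.15). Of the 13 S phase targets of E2F, 10 were positive in CUC2gm-4 against WT and 5 against cuc2-3, with medians of 0.07 and -0.02. The CDK partner CDKA;1 was at -0.11 and -0.17 in these comparisons. RBR1 with the E2F and DP genes had 4 of 9 positive against WT (median -0.008) and 7 of 9 against cuc2-3 (median 0.13). Against WT, RBR1 was at 0.24 and E2FC at -0.28, and against cuc2-3 E2FB, an activator, was at 0.35. Of 7 endoreplication genes 5 were positive in both, with ILP1 at 0.43 and CCS52A1, an activator of the anaphase-promoting complex, at -0.42 against WT. OSD1 was at 0.56 against cuc2-3 and did not pass. This list was not split into genes that promote and genes that restrain endoreplication, so its counts give no direction of the process. Of 13 upstream regulators 10 and 7 were positive, with the cytokinin response factor ARR1 at 0.34 and 0.32. The same comparisons had 4 of 4 green leaf markers negative (medians -0.45 and -0.39) and 6 of 6 and 5 of 6 stomatal lineage markers (medians -0.43 and -0.36), and the green leaf sum was 28022 to 40409 in CUC2gm-4, 34282 to 71932 in WT and 39699 to 51527 in cuc2-3. Without WT 1 the green leaf markers had 3 of 4 negative against WT (median -0.05) and the stomatal ones 6 of 6 (median -0.38). STM, the only meristem marker tested, was at 0.81 against WT, 0.29 there without WT 1, and 0.46 against cuc2-3, and did not pass. Of 5 trichome markers 3 and 4 were positive (medians 0.16 and 0.14), and 2 against WT without WT 1 (median -0.07). The part of the markers in these values was not tested.

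In cuc2-3 against WT 4 of 9 tested D-type cyclins had positive values (median -0.13), of the KRP list 4 of 7 (0.08) and of the SIM/SMR list 3 of 9 (-0.03), beside -0.01 over all genes. KRP5 was at 0.48 and E2FB at -0.38 there, and the SIM/SMR family member AT5G40460, which the reference annotates as an SMR3-like inhibitor of cyclin-dependent kinases, was at -0.64 with a 95% interval of -1.56 to 0.28. The CDK partners and activating kinases, a list that also holds the kinase WEE1, had 2 of 9 positive (median -0.06). RBR1 with the E2F and DP genes also had 2 of 9 (median -0.09), and the endoreplication genes had 3 of 7 (median -0.13). Of the S phase targets of E2F 8 of 13 were positive (median 0.09), with MCM6 at 0.26 and MCM2 at 0.23, both subunits of the replicative helicase. Among the 13 upstream regulators 9 were positive (median 0.02). SKP2B, an F-box protein that targets KRP1 for breakdown, was at 0.29 and PPD1, a repressor of meristemoid division, at -0.20. Without WT 1 the D-type cyclins had 3 of 9 positive (median -0.26), the KRP list 5 of 7 (0.12) and the SIM/SMR list 5 of 9 (0.10). The CDK partners then had 2 of 9 (-0.08), RBR1 with E2F and DP 3 of 9 (-0.16) and the endoreplication genes 4 of 7 (0.02). The S phase targets had 10 of 13 (0.16) and the upstream regulators 6 of 13 (-0.01).

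For the replicate number the pathway lists gave 1 gene that passed, SMR1 itself. Of 13 upstream regulators 5 had an unadjusted p under 0.05 in edgeR, against 23.9% of all genes. So had 4 of 9 SIM/SMR genes, 2 of 9 CDK partners and activating kinases, 2 of 7 endoreplication genes and 1 of 14 mitotic genes. The KRP list had 1 of 7, and the D-type cyclins and the RBR1, E2F and DP list 1 of 9 each. The 4 SIM/SMR genes ran both ways in replicate 1, with SMR1 at 1.15, SIM at 0.35, SMR2 at -0.50 and AT5G40460 at -0.87. The 9 D-type cyclins had 1 positive value for replicate 1 against the mean of the others (median -0.08), or 3 without WT 1 (median -0.10), and the 13 S phase targets had 4 (median -0.04), with no gene of this list under an unadjusted p of 0.05.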

How the data were processed

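The 9 deposited tables hold whole-number counts of reads per gene model, made by the authors with sam2pkm, which removed reads placed equally well at more than 1 site, per the file headers. Per the submitters' processing notes the build was TAIR10. The files hold no coordinates, so positions and promoters come from TAIR10.1 by identifier. Aligner and strand setting: not given in the sources used here. Model lengths in the deposited tables gave RPKM.

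From these counts, edgeR 4.0.16 in R 4.3.3 (limma 3.58.1, DESeq2 1.42.0 as alternatives) tested 18291 genes that reached 1 CPM in 3 or more libraries, plus the members whatever their counts, with TMM factors, a quasi-likelihood model on all 9 libraries, and Benjamini-Hochberg adjustment at 0.05. The procedure was tested on simulated data, drawn with the spread of the replicate block fit and, for the genotype tests, without replicate differences. The real libraries varied more in the fit of genotype alone, so that test cannot show how the genotype tests perform on them. The common biological coefficient of variation was 0.237, and 0.177 with the replicate block.

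The members and lists were chosen with earlier results of these data known. Genes named were the 8 members, list genes that passed, the 2 other genes of each list with the smallest p in a comparison, and the 3 genes most correlated with each member; a few of the list examples were left out. The lists lost 5 loci without a matching annotation, after counts had been seen. The motifs and the replicate 1 contrast were chosen after values were seen. The promoter window of 1 member is not reported here.

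Genotypes share replicate numbers 1 to 3. After subtracting genotype means the 9 same-numbered pairs of libraries correlated at 0.198 to 0.586 and the 18 other pairs at -0.477 to 0.188. Subtracting the means itself pushes the other pairs down where same-numbered pairs run together. The main genotype tests used genotype alone and no pairing. Only the replicate block, the replicate number test and the counts of same-numbered pairs use the shared numbers, from the data and not from the labels.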

Additional observations from a re-analysis of the deposited data

How the results depend on the processing

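No member passed in a genotype comparison under any alternative, and SMR1 passed for the replicate number in each of the 15 alternatives run, with a log2 difference of 1.02 to 1.27 and an adjusted p of at most 0.033 in edgeR, limma or DESeq2. Members passing for the replicate number were 3 with no count minimum, where CYCD3;3 (adjusted p 0.013) and KRP1 (0.049) joined in edgeR, and 1 to 2 on leaving out a library, where CYCD3;3 joined without cuc2-3 1 (0.035). Genes passing in cuc2-3 against WT, CUC2gm-4 against WT and CUC2gm-4 against cuc2-3 numbered 4, 3 and 3. They were 14, 81 and 25 in DESeq2, which called 2017 genes for the replicate number in place of 797; 8, 20 and 1 without replicate 3 of all genotypes; and 4, 35 and 7 with the replicate block, which changed no call of a member. In CUC2gm-4 against WT they were 9 with no count minimum (3026 for the replicate number) and 6 in a model of the genotypes compared.

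Leaving out a library gave 3 to 4, 2 to 8 and 2 to 4 genes, and 195 (without cuc2-3 3) to 1261 (without cuc2-3 1) for the replicate number. The same with the replicate block, an alternative added after the data were seen, gave 3 to 18, 4 to 94 and 2 to 8 genes, and 0 members throughout. Signs of uncalled members turned over in both kinds of leave-out. In cuc2-3 against WT the log2 fold changes ran from -0.35 to 0.039 for CYCD3;1, -0.37 to 0.057 for CYCD3;2, -0.44 to 0.20 for CYCD3;3, -0.076 to 0.41 for CYCD4;1, -0.63 to 0.35 for KRP1, -0.0016 to 0.48 for KRP2, -0.18 to 0.14 for SIM and -0.50 to 0.60 for SMR1. In CUC2gm-4 against WT they ran from -0.027 to 0.29 for CYCD3;2, -0.088 to 0.55 for CYCD3;3, -0.86 to 0.060 for KRP1, -0.10 to 0.25 for KRP2 and -0.87 to 0.13 for SMR1. In CUC2gm-4 against cuc2-3 they ran from -0.011 to 0.30 for CYCD4;1 and -0.43 to 0.048 for KRP2, and for replicate 1 against the others from -0.28 to 0.13 for CYCD3;1, -0.28 to 0.11 for CYCD3;2 and -0.14 to 0.15 for KRP2.

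Other sign changes were in cuc2-3 against WT, with CYCD3;3 at 0.10 without replicate 3 of all genotypes, KRP1 at 0.086 in limma-voom, and SMR1 at 0.032 with the replicate block, 0.029 with library totals and 0.090 in limma-voom; in CUC2gm-4 against cuc2-3, with KRP2 at 0.049 without replicate 3 of all genotypes; and for the replicate number, with KRP2 at -0.087 with library totals, which move the median of all genes by -0.12. The cause was not tested. KRP1 had the fewest counts of the members, 502 in all.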
